A study of Mus musculus with 18 samples.

Results

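Ribosomal protein genes encode the proteins that assemble with ribosomal RNA into the small (Rps) and large (Rpl) ribosomal subunits. The members were the protein-coding genes on chromosomes 1 to 19 whose RefSeq symbol is Rpl or Rps followed by a digit, or Rplp0, Rplp1, Rplp2 or Rpsa, without the Rps6k kinases and without symbols marked as pseudogenes. This gave 85 genes of 20665 protein-coding genes on those chromosomes. Of these, 73 encode a canonical ribosomal protein (30 of the small and 43 of the large subunit), and 12 carry the symbol of a paralog or another related gene, such as Rpl22l1, Rpl10l or Rps19bp1. A transcription start with its strand was at hand in RefSeq (GRCm38.p6) for 65 members (53 canonical, 12 of the other kind) and for 16457 genes in all. These 65 carry the main counts, and the other 20, for which only the 2 gene ends are known, are described separately. Membership rests on the gene symbol alone, so no peak value was used to choose a gene.

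The study profiled CTCF and the cohesin subunit SMC1A by CUT&RUN in sorted double-positive (DP) thymocytes, the CD4+ CD8+ stage of T cell development, from wild-type (WT) mice and from mice in which Satb1, a chromatin organiser of thymocytes, was knocked out (KO, labelled vKO in the sample titles). Every sample of both genotypes carries the treatment label Tamoxifen, so the WT libraries also came from treated material, and the labels give neither the Cre driver nor the age or strain of the mice. Of 18 samples, 7 were analysed here as peak lists mapped to mm10: SMC1A from WT replicates 1 and 2 and from KO replicates 1 and 2, and CTCF from WT replicate 1 and from KO replicates 1 and 2. The replicate number equals the labelled batch, and nothing in the labels says whether replicates came from separate mice, so p-values measure only the spread between these libraries. The other samples, among them input, IgG and a second WT CTCF library, were not analysed here. RNA was not measured in these files, so neither the expression of the members, nor the loss of Satb1, nor the DP identity of the cells was checked.

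CUT&RUN cuts and releases the DNA next to an antibody-bound protein in intact nuclei, and a peak is a stretch with more released fragments than its surroundings. Cohesin is a ring-shaped complex that holds and extrudes loops of DNA, and SMC1A is one of its core subunits. CTCF binds DNA by its zinc fingers and halts extruding cohesin at many of its sites. Ribosomal protein genes are housekeeping genes with short, mostly CpG-rich promoters. Their messenger RNAs typically start at a C followed by a run of pyrimidines, the 5′ terminal oligopyrimidine tract through which their translation is regulated, and their promoters are known for ETS-family and YY1 sites.

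The promoter sequences of 6 members with a listed start are shown. The first 4 have the strongest SMC1A peaks of these members. The last 2 have an SMC1A region called in both WT and neither KO library. The Rps19 SMC1A summits, the strongest Rpl41 SMC1A summit and that Rpl15 region lie outside the printed stretches. So do the Rpl13a SMC1A summits of WT replicate 1 and both KO libraries, and the Rplp0 SMC1A summit of WT replicate 2. Each printed stretch runs from 100 bases before the start to 20 bases from it, 5′ to 3′ on the gene's strand, from RefSeq (GRCm38.p6). Capitals mark the motif words searched below (CTCF core GCCCTCT in Rps19, SP1 CCGCCC in Rps19, Rpl41 and Rpl13a, ETS CCGGAAG or CTTCCGG in Rpl41, Rpl15 and Rpl19, E-box CACGTG in Rpl19), and no complete word of the search lies in this stretch of Rplp0.
Rps19, chr7:24884492-24884611, plus strand: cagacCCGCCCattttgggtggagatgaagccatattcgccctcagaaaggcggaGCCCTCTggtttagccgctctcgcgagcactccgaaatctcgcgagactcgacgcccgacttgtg
Rpl41, chr10:128549149-128549268, minus strand: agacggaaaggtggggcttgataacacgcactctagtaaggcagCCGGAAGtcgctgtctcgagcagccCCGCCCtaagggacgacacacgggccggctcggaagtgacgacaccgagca
Rpl13a, chr7:45128726-45128845, minus strand: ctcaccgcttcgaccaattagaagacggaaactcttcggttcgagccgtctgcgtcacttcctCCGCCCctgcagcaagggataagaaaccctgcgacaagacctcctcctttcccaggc
Rplp0, chr5:115559367-115559486, plus strand: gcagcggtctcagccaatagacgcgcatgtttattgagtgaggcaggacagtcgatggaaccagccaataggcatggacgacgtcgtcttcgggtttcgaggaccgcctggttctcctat
Rpl19, chr11:98026610-98026729, plus strand: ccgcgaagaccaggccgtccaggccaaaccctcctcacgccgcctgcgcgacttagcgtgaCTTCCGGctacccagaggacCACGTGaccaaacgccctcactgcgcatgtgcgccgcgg
Rpl15, chr14:18270967-18271086, minus strand: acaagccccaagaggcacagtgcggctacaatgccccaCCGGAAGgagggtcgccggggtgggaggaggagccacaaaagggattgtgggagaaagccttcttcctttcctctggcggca

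The ribosomal protein promoters carried SMC1A in both genotypes. A gene counted as occupied when any base of a peak lay within 2 kb of its start. In WT replicate 1 an SMC1A peak was present at 55 of 65 members (84.6%), in WT replicate 2 at 56 (86.2%), in KO replicate 1 at 57 (87.7%) and in KO replicate 2 at 55 (84.6%). Over all 16457 genes the same count gave 41.5% and 40.9% in the WT and 45.8% and 39.5% in the KO libraries, so the members' share was about double the background in each list. The WT libraries averaged 55.5 ± 0.707 members (SD, n = 2) and the KO libraries 56 ± 1.41 members (SD, n = 2), a difference of 0.5 members (exact two-sided permutation test over libraries, p = 1, with 0.33 the smallest p that 2 against 2 allows). Within batch 1 the KO library had 2 more members than the WT library, and within batch 2 it had 1 fewer (a change of -1). The values of both genotypes overlapped, and the design could not have reached a p under 0.05. The difference was -0.5 members with lists of equal length or without KO SMC1A replicate 1.

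At the level of single genes, 52 of 65 members had an SMC1A peak in all 4 lists, against 33.9% of all genes. Among the canonical members these were 47 of 53 (88.7%), 19 of 22 for the small subunit and 28 of 31 for the large subunit. Of the 12 paralogs and other symbols, 5 had SMC1A in all 4 lists: Rpl22l1, Rps27l, Rpl36al, Rps19bp1 and Rpl7l1. The 7 members with no SMC1A peak in any list (all genes 50.6%) were Rpl37rt, Rps23rg1, Rps27rt, Rpl32l, Rpl10l, Rpl39l and Rpl3l, all among the 12 paralogs and other symbols. The same 7 had no CTCF peak in any list either. The nearest SMC1A peak of any list lay 2262 bp from the Rpl37rt start, 3148 bp from that of Rpl3l and 342955 bp from that of Rpl10l. Every canonical member with a listed start therefore had SMC1A in at least 1 library.

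CTCF was found at the same promoters. A CTCF peak within 2 kb of the start was listed for 58 of 65 members (89.2%) in the WT library, for 58 again in KO replicate 1, and for 51 (78.5%) in KO replicate 2. The shares over all genes were 50.4%, 54.9% and 35.4%. With 1 WT list no genotype test of CTCF was possible. All 53 canonical members had CTCF in the WT list and in KO replicate 1, and 47 of them in KO replicate 2. CTCF was present in all 3 lists at 51 members (all genes 34.8%) and in none at 7 (all genes 44.1%). No member had CTCF in WT and neither KO list (all genes 0.978%), and no member had it in both KO lists and not in WT (all genes 0.504%). The 7 members missing only from KO replicate 2 were Rpl7a, Rpl13, Rpl19, Rpl23, Rpl10a, Rps15 and Rpl36al. That list was the shortest for CTCF, with 22928 peaks against 38989 for the WT library and 55750 for the other KO library, and it had the highest background, 3.28 reads at its lowest 1% against 1.02 and 1.82 reads. In all 7 lists together, 48 of 65 members were occupied, against 29.2% of all genes.

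**Figure D1:**
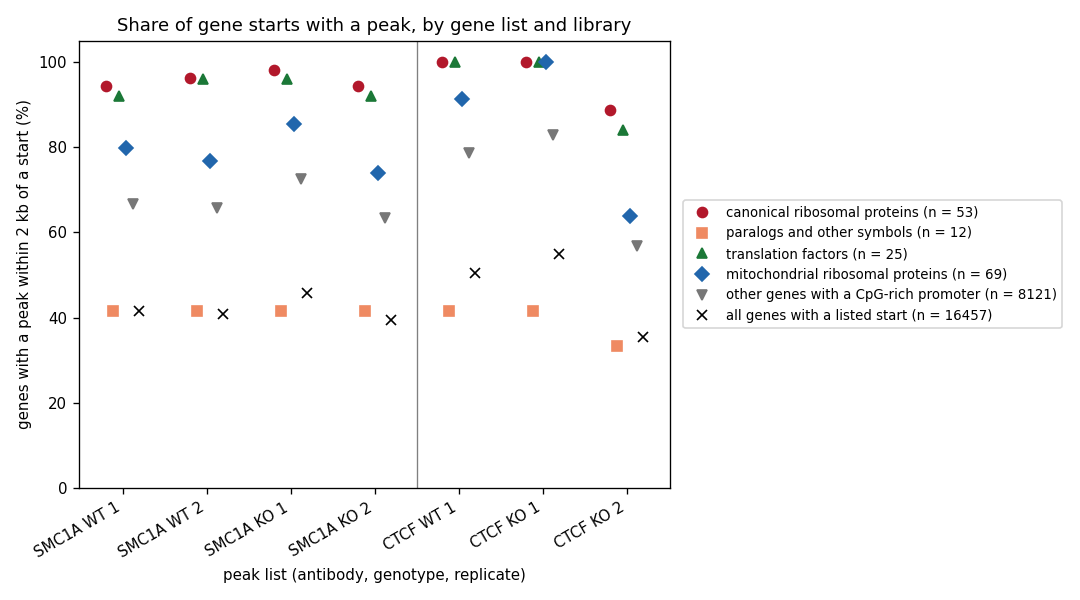
Share of gene starts with a peak within 2 kb (y axis, percent) in each of the 7 peak lists (x axis), with 1 point for each gene list and library. Canonical ribosomal protein genes and translation factors lie between 84% and 100% in every list, the 12 paralogs and other symbols at 41.7% or 33.3%, beside 35.4% to 54.9% of all genes.

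Nearly every SMC1A peak at a member overlapped a CTCF peak. Of the SMC1A peaks within 2 kb of the 65 starts, 62 of 62 in WT replicate 1, 63 of 63 in WT replicate 2, 64 of 65 in KO replicate 1 (98.5%) and 60 of 60 in KO replicate 2 shared at least 1 bp with a CTCF peak of any of the 3 CTCF lists. The exception was the second SMC1A peak of Rpl24 in KO replicate 1. The KO libraries averaged 99.2% ± 1.09 (SD, n = 2) against 100% in both WT libraries, a difference of -0.769 percentage points (exact two-sided permutation test over libraries, p = 1, smallest possible 0.33). Its sign depended on the lists used: it was 1.61 points with lists of equal length, and 1.66 points with the WT CTCF list alone or without KO CTCF replicate 1. For SMC1A peaks at all gene starts the overlap was 98.6% and 98.0% in WT and 97.9% and 98.8% in KO, so the members' overlap was close to that of gene starts in general. No member had SMC1A in any list and CTCF in none, a pattern found in 0.638% of all genes.

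The canonical genes can be set beside other genes that serve protein synthesis or share their promoter type. Among 25 translation factor genes with a listed start, 22 had SMC1A in all 4 lists and 21 had CTCF in all 3, and Eif3l, a subunit gene of initiation factor 3, had SMC1A in both WT and neither KO list. Among 24 ribosome biogenesis genes these counts were 19 and 20, and Rrn3, which recruits RNA polymerase I, had SMC1A in no list. Of 69 mitochondrial ribosomal protein genes, whose products form the separate ribosome of mitochondria, 45 (65.2%) had SMC1A in all 4 lists, 7 in none, Mrps21 in both WT lists alone and Mrpl53 in both KO lists alone. Promoters rich in CpG, with an observed to expected CpG ratio of at least 0.6 in the 300 bases around the start, were occupied more often than the average gene: of 8121 such genes outside the members, 4549 (56.0%) had SMC1A in all 4 lists. Of the canonical members 46 of 53 were CpG-rich by this measure. The canonical share of 88.7% thus lay above that of CpG-rich promoters and of the mitochondrial genes, and at about that of the 25 translation factors. These shares are descriptions, and their differences were not tested.

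The members were occupied often, and the median rank of their SMC1A peaks was within 6 percentile points of that of all occupied genes, with fewer members among the highest ranks. Each peak was ranked by its −log10 q within its own list, since fold and q from lists of different depth cannot be set against each other. The strongest SMC1A peak of a member had a median percentile of 68.9 and 73.3 in the WT and 77.8 and 67.6 in the KO lists, beside 68.5, 69.9, 72.4 and 68.3 for all genes with a peak. For other CpG-rich promoters with a peak the SMC1A medians were 71.6, 72.3, 74.8 and 70.5. The members lay below these in WT replicate 1 and KO replicate 2 and above them in WT replicate 2 and KO replicate 1. Of the members with a peak, 14.5%, 12.5%, 15.8% and 12.7% had one above the 90th percentile of their list, beside 20.2%, 20.7%, 23.4% and 20.3% of all genes with a peak. For CTCF both measures were higher at the members than over all genes in each list. The members' median CTCF percentiles in the WT list, the first KO list and the second KO list were 84.7, 91.3 and 71.2, beside 78.1, 80.7 and 64.3 for all genes, and 34.5%, 55.2% and 23.5% of members were above the 90th percentile, beside 28.5%, 33.0% and 16.9% of all genes with a peak. Other CpG-rich promoters lay between, with CTCF medians of 80.8, 83.5 and 65.3 and with 31.5%, 37.1% and 17.4% above the 90th percentile. After merging the lists, the median SMC1A region at a member spanned 731 bp and the median CTCF region 977 bp. At all gene starts these were 550 and 654 bp. A merged region spans the peaks of all its lists, so regions in more lists can be wider. In single lists the members' strongest SMC1A peaks had median widths of 550 and 529 bp in WT and 545 and 480 bp in KO. For all genes with a peak these were 498, 509, 561 and 475 bp, so members were narrower in KO replicate 1. For CTCF the members had 957, 1212 and 501 bp, beside 747, 952 and 484 bp.

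**Figure D2:**
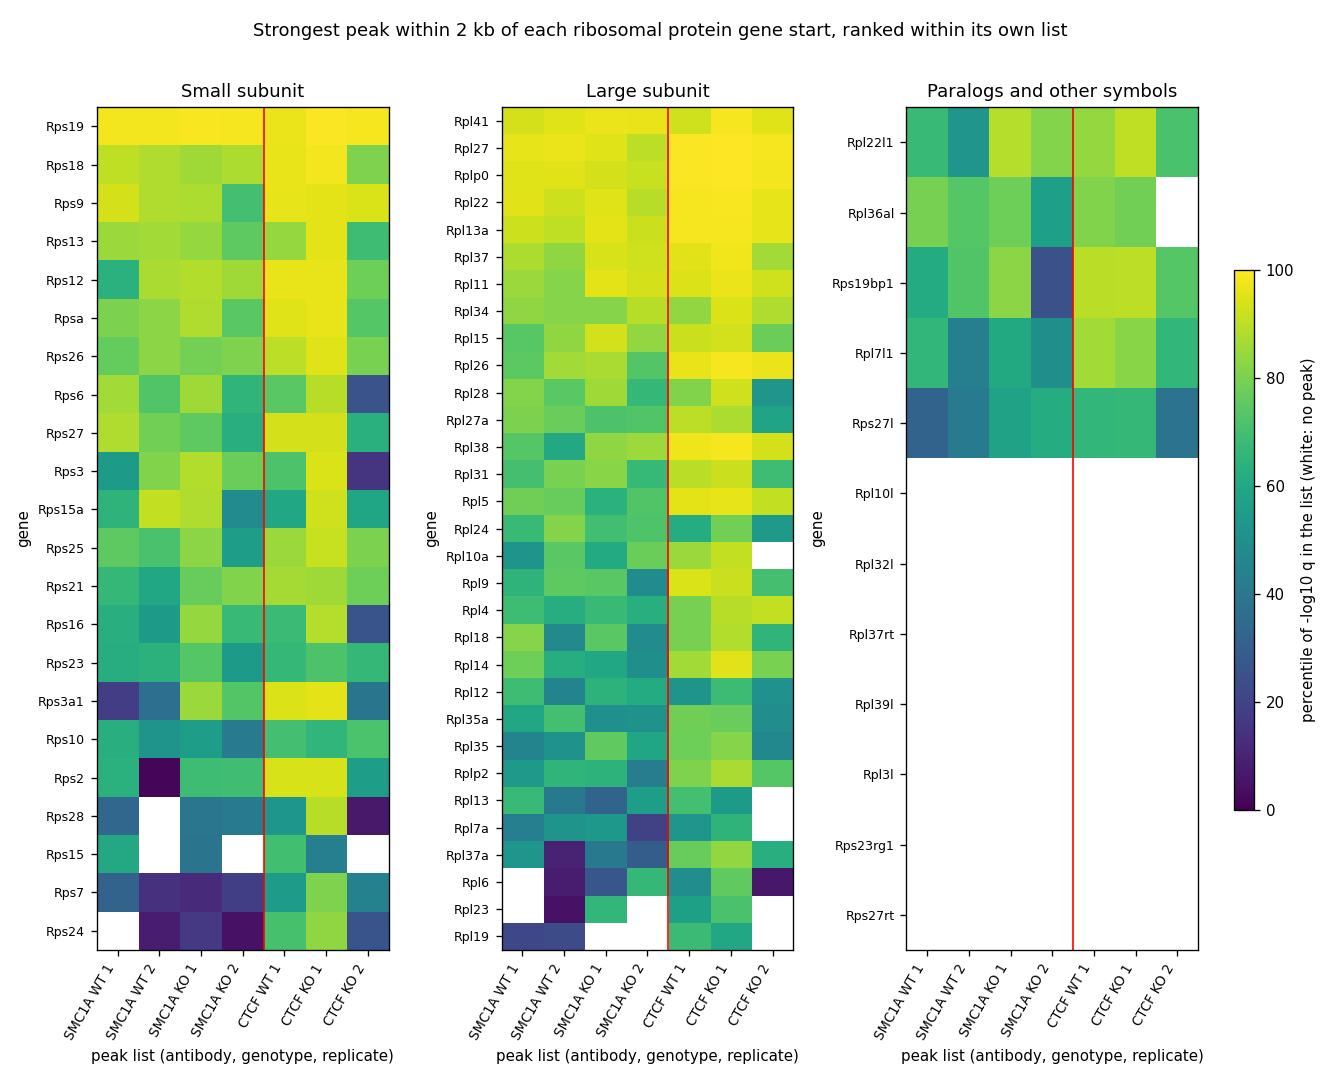
Percentile of −log10 q within its own list (colour, 0 to 100) of the strongest peak within 2 kb of each of the 65 members with a listed start (rows) in the 7 lists (columns); white means no peak. The top rows of both subunits are high in all lists, 7 of the 12 paralogs are white throughout, and Rpl19 is white in both KO SMC1A lists.

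Among the members with a listed start, the 8 strongest SMC1A peaks were ordered by their lowest −log10 q over the 4 lists. They were at Rps19 (64.0), Rpl41 (39.8), Rpl13a (26.2), Rplp0 (25.4), Rpl27 (23.4), Rpl22 (22.1), Rps18 (20.5) and Rpl37 (19.3). Their heights are given as reads piled up at the summit, a whole number recovered from the deposited fold and p of each peak, and the depth of the libraries behind them is unknown.

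Rps19, a small subunit protein whose human counterpart is mutated in Diamond-Blackfan anaemia, had 55 and 50 reads at its SMC1A summit in WT and 77 and 44 in KO. Its summit lay 224 and 197 bp before the start in WT and 147 and 123 bp before it in KO, upstream of the stretch printed above. The 2 KO values enclosed the 2 WT values, and both marks were among the strongest of the members: CTCF had 60 reads in WT and 76 in KO replicate 2, at −log10 q of 69.0 and 58.0, and −log10 q of 320 in KO replicate 1, where the p was too small to solve for reads.

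Rpl41, which encodes a very short large subunit peptide, had 39 and 37 SMC1A reads in WT and 55 and 36 in KO. This strongest summit was not at the start but 1371 and 1304 bp downstream of it in WT and 1310 and 1297 bp downstream in KO, beyond the other end of the gene (chr10:128548110-128549168), and the window also holds the start of Zc3h10. A second SMC1A peak had its summit 29 and 86 bp from the Rpl41 start in WT and 62 and 45 bp from it in KO, so all 4 libraries had SMC1A at both places.

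Rpl22, a large subunit protein needed in mice for the development of alpha-beta T cells, had 36 and 26 SMC1A reads in WT and 38 and 19 in KO. Its single peak lay inside the gene. The summits were 1379 and 1265 bp after the start in WT and 1334 and 1280 bp after it in KO. These distances run from the start at the gene's outer end. Rpl22 has 2 listed starts, and the distance from the other was not measured. CTCF peaked at the same place, 1269 bp after the start in WT with 73 reads, and 1349 and 1352 bp after it in KO. Of the 52 members with SMC1A in all lists, only Rpl22 and Rpl41 had the strongest summit over 250 bp from the start used, in every list.

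Rpl13a, a large subunit protein, had 43 and 36 SMC1A reads in WT and 49 and 26 in KO, with summits 95 to 187 bp before the start. Rplp0, the central protein of the ribosomal stalk, had 39 and 37 reads in WT and 38 and 23 in KO, with summits 49 to 101 bp before the start. Rpl27 of the large subunit had 47 and 47 reads in WT and 46 and 24 in KO, and its summit lay exactly 56 bp after the start in every list. In these 3 genes KO replicate 2 was the lowest of the 4 libraries.

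Rps18 of the small subunit had 32 and 26 SMC1A reads in WT and 30 and 22 in KO, and Rpl37 of the large subunit had 29 and 23 in WT and 44 and 28 in KO. Rpsa, the ribosomal protein also known as the laminin receptor, had 23 and 22 reads in WT and 32 and 16 in KO, with summits 14 to 73 bp before the start. Of the stalk proteins P1 and P2, Rplp2 had 19 and 20 reads in WT and 24 and 9 in KO, and Rplp1, placed by its gene ends, had 24 and 22 in WT and 27 and 20 in KO. The 2 WT values lay between the 2 KO values in Rps19, Rpl41, Rpl13a, Rpl22, Rpsa, Rplp1 and Rplp2. Over all members with a peak the median SMC1A height was 18 and 17 reads in WT and 23 and 14 in KO, the same order as the lists' lowest 1% background of 0.533 and 0.465 reads in WT and 0.633 and 0.384 in KO. The part of depth in these heights was not tested.

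**Figure D3:**
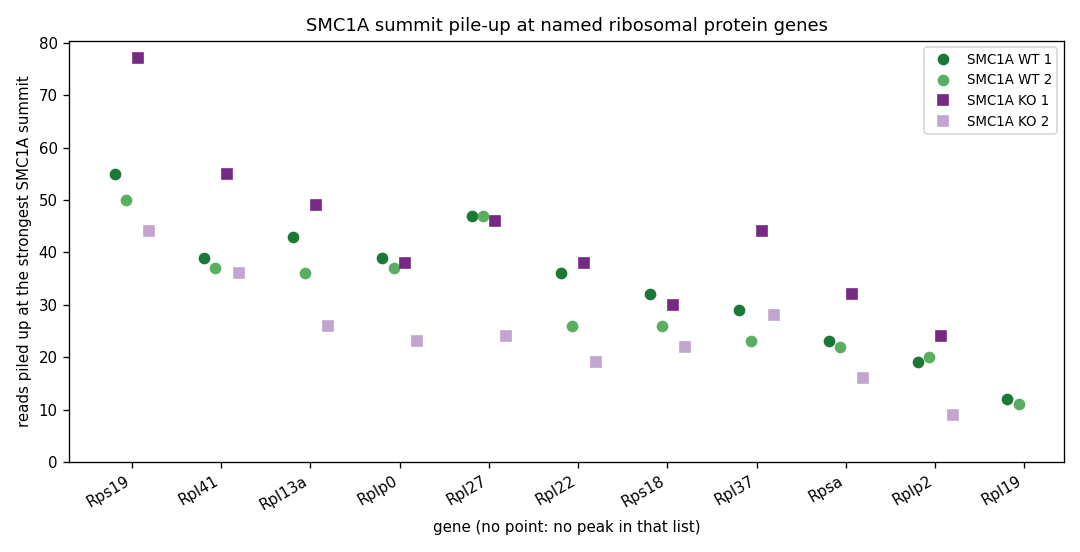
Reads piled up at the strongest SMC1A summit (y axis) of 11 named members with a listed start (x axis), 1 point for each of the 4 libraries and no point where a list has no peak. KO replicate 1 is the highest library at 7 genes and KO replicate 2 the lowest at 9 of the 10 genes with 4 points, and Rpl19 has WT points alone.

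The strongest CTCF peaks of members with a listed start were found by the same rule over the 3 CTCF lists. They were at Rpl27 (lowest −log10 q 60.4), Rps19 (58.0), Rplp0 (56.2), Rpl26 (43.0), Rpl22 (37.1), Rpl13a (36.5), Rpl41 (33.2) and Rps9 (30.3). Rpl27, Rps19, Rplp0, Rpl22, Rpl13a and Rpl41 recur from the SMC1A order. At the Rpl27 start the CTCF pile-up was 109 reads in WT and 83 in KO replicate 2, with the summit 10 and 45 bp after the start. At Rplp0 it was 108 and 76 reads, with the summit 59 and 112 bp before the start. Rpl26, whose protein lies near the exit of the large subunit's peptide tunnel, had 58 CTCF reads in WT and 184 and 64 in KO, and Rps9 of the small subunit had 55 in WT and 119 and 51 in KO. KO replicate 1 had the widest CTCF peaks at members, with a median of 1212 bp against 957 bp for the WT library and 501 bp for the other KO library, and among these 8 genes it was the highest library at the 4 where its pile-up could be solved.

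Summits at the members lay close to the start. Where a gene has several listed starts, distances run from 1 of them, at the gene's outer end if listed. The strongest SMC1A summit was within 250 bp of the start at 53 of 55 members with a peak in WT replicate 1 (96.4%), 52 of 56 in WT replicate 2 (92.9%), 53 of 57 in KO replicate 1 (93.0%) and 48 of 55 in KO replicate 2 (87.3%). For all genes with a peak these shares were 71.4%, 70.6%, 69.5% and 69.9%, so the members' summits were nearer to the start in each list. Similar genes lay between: 83.6%, 84.9%, 83.1% and 84.3% for mitochondrial ribosomal protein genes. For other CpG-rich promoters the shares were 76.7%, 76.2%, 75.2% and 75.7%. For CTCF the members had 53 of 58 in WT (91.4%), 52 of 58 in KO replicate 1 (89.7%) and 40 of 51 in KO replicate 2 (78.4%). The shares were 68.1%, 66.5% and 60.8% for all genes and 84.1%, 73.9% and 77.3% for the mitochondrial genes. Of the 52 members with SMC1A in all 4 lists, 44 had the summit within 250 bp in every list, 19 had it upstream of the start in every list and 9 downstream in every list. The position of a member's strongest summit varied over the 4 lists by a median of 140 bp, so a side of the start can be read for 28 of the 52 and not for the rest. The promoters are not always their own: 10 of the 65 windows hold the start of another protein-coding gene (Med22 beside Rpl7a, Lias beside Rpl9, Ndufa7 beside Rps28 and Vps52 beside Rps18 among them), and a peak there belongs to both.

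**Figure D4:**
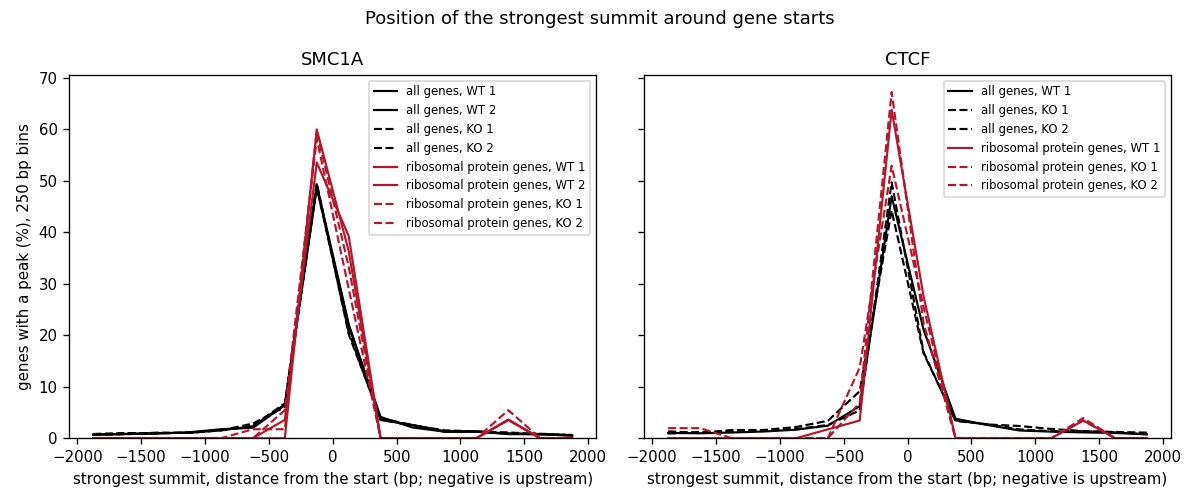
Distance of the strongest SMC1A (left) or CTCF (right) summit from the gene start (x axis, bp, negative upstream) as a share of genes with a peak (y axis, percent, bins of 250 bp); red lines are members, black lines all genes, solid WT and dashed KO, 1 line for each list. Members peak higher than all genes in the bins beside the start, and the small rise between 1250 and 1500 bp downstream in the SMC1A panel holds Rpl22 and Rpl41 in every list and Rpl12 in KO replicate 2.

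Of all 65 members, Rpl19 alone had SMC1A in both WT and neither KO list (all genes 0.498%), and none had it in both KO and neither WT list (all genes 1.26%). Rpl19 encodes a large subunit protein at the bridge between the subunits. Its WT peaks were weak, 12 and 11 reads with −log10 q of 4.43 and 4.19, at percentiles 21.6 and 22.7 of their lists, in a merged region at chr11:98026464-98026929 that spans the listed start at base 98026710. The nearest SMC1A peak in KO replicate 1 lay 3860 bp away at chr11:98022651-98022850, near the upstream end of the gene record at base 98022003, with 11 reads and −log10 q of 3.08, and the nearest in KO replicate 2 lay 25188 bp away. CTCF remained at the Rpl19 start in KO replicate 1, with 39 reads against 28 in WT, and had no peak in KO replicate 2. The call was lost when −log10 q of at least 5 was required and with a window of 5 kb. A rate of 1 in 65 against 82 in 16457 genes is a single gene, and nothing is read from it.

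A further 5 members had SMC1A in some lists without a split by genotype. Rpl6 had no peak in WT replicate 1, and 9 reads in WT replicate 2 and 11 and 14 in KO. Rps24 likewise lacked a peak in WT replicate 1, with 9 reads in WT replicate 2 and 12 and 8 in KO. Rps28 lacked one in WT replicate 2, with 17 reads in WT replicate 1 and 21 and 15 in KO. Rps15 had 18 reads in WT replicate 1 and 13 in KO replicate 1, and Rpl23 had 10 in WT replicate 2 and 22 in KO replicate 1. Most of these peaks were lower than the median member peak of their list, and all 5 genes had CTCF in WT and in KO replicate 1.

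Merged peak regions gave the same picture as genes. Within 2 kb of the 65 starts there were 69 SMC1A regions, of which 52 (75.4%) were in all 4 lists, 2 (2.90%) in both WT and neither KO list and 0 in both KO and neither WT list; for all gene starts these shares were 50.4%, 1.48% and 3.75% of 10213 regions. The second such region, besides that of Rpl19, lay inside Rpl15 (chr14:18269784-18270186) with 6 and 7 reads, while the main Rpl15 region at its start was in all 4 lists with 20 and 19 reads in WT and 34 and 17 in KO. For CTCF there were 90 regions, 53 in all 3 lists (58.9%), 4 in WT and neither KO list (4.44%) and 0 in both KO lists alone, beside 37.1%, 9.92% and 1.34% of 14722 regions at all starts. The 4 were weak side regions at Rplp0, Rpl18, Rps12 and Rpl26 with 10 to 12 reads in WT, and each of these genes also had a region present in all 3 lists.

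For the 20 members without a listed start, a peak within 2 kb of either gene end was counted, which is a wider search. SMC1A was in all 4 lists at 18 of 20 (29.3% of the 4208 genes treated alike), and CTCF in all 3 lists at 18 of 20 (33% of those genes). Rps20 had SMC1A in WT replicate 2 and KO replicate 1, with 15 and 14 reads. Rpl17 had SMC1A in all 4 lists but lacked CTCF in KO replicate 2. Rps14 had a main SMC1A region in all 4 lists, with 30 and 35 reads in WT and 55 and 33 in KO, and a weak second region in both KO lists alone with 7 and 6 reads. CTCF side regions in WT alone lay at Rps20, Rpl23a and Rpl30.

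Rps29, chosen for mention after its values were seen, had the strongest SMC1A peak of all members in each list. This peak had −log10 q of 434 and 398 in WT and 315 and 230 in KO, with folds of 47.8, 55.3, 38.8 and 36.1 over the local background, and its CTCF peak had −log10 q of 135 in WT and 150 and 266 in KO. The peaks merged to chr12:69158680-69160007. RefSeq lists Rps29 at chr12:69157722-69159186 and, beside it, Rn7s1 at chr12:69159295-69159593, a gene copy of the RNA of the signal recognition particle. The region thus covers the end of Rps29 with the higher coordinate and the whole of Rn7s1. Without a listed start, whether this is the promoter end of Rps29 cannot be said here. To which of the genes the reads belong, and the part of reads from other copies of this repeated RNA gene, was not tested.

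CTCF words were about as common at the members as at other promoters. Words of the CTCF core (the word AGGGGGC, the word AGGTGGC, the word AGATGGC or the word AGAGGGC, on either strand) lay in the 300 bases from 250 before to 50 after the start of 19 of 53 canonical members (35.8%), against 37.3% of other CpG-rich promoters and 30.1% of all genes. Of these words AGATGGC lies within the YY1 word AAGATGGC, and outside it a CTCF word was present in 26.4% of canonical members and 27.9% of all genes. Of the 19 with a CTCF word, 18 had CTCF in all 3 lists and 18 had SMC1A in all 4. Of the 34 without, 29 had CTCF and 29 had SMC1A in all lists. So 29 of the 47 canonical members with CTCF in all 3 lists had none of these 4 words in the window.

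The ETS word CCGGAAG was in 22 of 53 canonical members (41.5%), 34.8% of mitochondrial ribosomal protein genes, 20.0% of other CpG-rich promoters and 12.2% of all genes. The YY1 word AAGATGGC was in 9.43% of canonical members, 17.4% of the mitochondrial genes, 5.07% of other CpG-rich promoters and 3.22% of all genes. The SP1 word GGGCGG was in 58.5% of canonical members, against 47.3% of all genes and 74.4% of other CpG-rich promoters, so it was more common than in the first and less common than in the second. TATAAA was in 7.55% of canonical members, against 13.5% of all genes and 5.84% of other CpG-rich promoters. The E-box CACGTG was in 9.43% of canonical members, against 7.97% of all genes and 11.5% of other CpG-rich promoters. All were searched on both strands, and a match is a description of the letters and not of a bound factor. At the start itself, 7 or 8 of the first 8 transcribed bases were pyrimidines in 18 of 53 canonical members (34.0%) against 5.17% of all genes, and the first base was C in 37.7% against 13.9%.

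**Figure D5:**
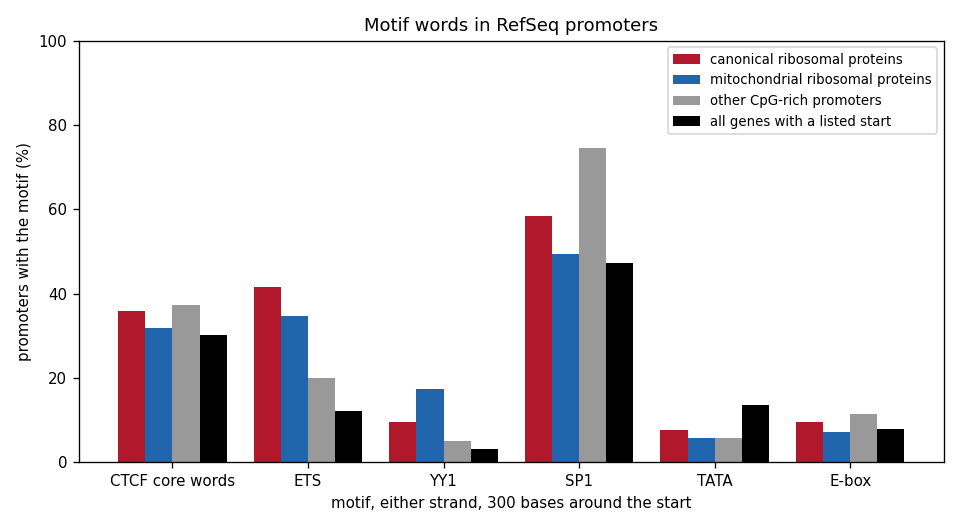
Share of 300-base RefSeq promoters with at least 1 match to each motif on either strand (y axis, percent) for canonical ribosomal protein genes, mitochondrial ribosomal protein genes, other CpG-rich promoters and all genes (bars). The ETS word is in 41.5% of canonical members and 12.2% of all genes, while the CTCF words are in 35.8% and 30.1%.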

How the data were processed

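CUT&RUN libraries were trimmed, mapped to mm10 and peak-called by the authors with Trimmomatic 1.24, Bowtie2, SAMtools and MACS2, per the submitters' processing notes, which give no roles or settings. Each deposited list holds, for 1 library, peak positions with fold (a ratio over local background), −log10 p, −log10 q and the summit position (all listed q below 0.0498); no read totals are given, so depth is unknown and no count model was run. Peaks were kept on chromosomes 1 to 19, X and Y. Starts and sequences came from the RefSeq promoter table and gene ends from the RefSeq gene table (GRCm38.p6, the same assembly as mm10). A gene was occupied when any base of a peak lay within 2000 bp. Whole-read summit pile-ups were solved from fold and p in 98.9 to 99.9% of peaks per list (−log10 p matched within 0.001), a step tested on simulated data. Libraries were compared by an exact permutation test over 2 against 2 (Python 3.11.15, scipy 1.17.1). Replicate numbers equal the labelled batch and so pair the libraries, although deviations of same-numbered SMC1A libraries correlated by r = 0.0181 over 16457 genes. Named genes were the up to 8 strongest members with a listed start for each mark, by lowest −log10 q. Every member or region present in 1 genotype alone was also named, as were Rpsa, Rplp0, Rplp1 and Rplp2. Members, gene lists and tests were chosen with earlier results of these data known. Results for a few genes are not reported here.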

Additional observations from a re-analysis of the deposited data

How the results depend on the processing

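The alternatives were windows of 500, 1000 and 5000 bp, the summit in place of any base, −log10 q of at least 5, lists of equal length, members without another start in the window, a larger overlap, the WT CTCF list alone, each library left out, and, chosen after seeing the data, all 85 members by either gene end and 1 start per gene. The difference in members with SMC1A (KO minus WT, 0.5) was 0 at 500, 1000 and 5000 bp, by summit and without shared windows, -0.5 with lists of equal length, and ranged from -0.5 (without KO SMC1A replicate 1) to 1.5 when leaving out 1 library. With the replicate block it was 0.5 (exact permutation p = 1), and the difference in overlap with CTCF was -0.769 points. The Rpl19 call fell from 1 to 0 at 5000 bp and at −log10 q of at least 5, and was 1 to 1 when leaving out 1 library. Calls in both KO lists alone ranged from 0 to 2 when leaving out 1 library: 1 (Rps28) without WT replicate 1 and 2 (Rpl6, Rps24) without WT replicate 2. The overlap difference (-0.769 points) was 0 at 500 and 1000 bp and at −log10 q of at least 5, -0.0025 when at least 0.5 of the shorter peak had to overlap, 1.61 with lists of equal length and 1.66 with the WT CTCF list alone, and ranged from -1.60 to 1.66 (without KO CTCF replicate 1). Members with SMC1A in all lists ranged from 52 to 54, and with CTCF in all lists from 51 to 58, when leaving out 1 library. The causes were not tested. With 2 libraries a genotype and unknown depth, a missing weak peak cannot be told apart from a shallower list.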
